A study of Mus musculus with 40 samples.

Results

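The interleukin-1 system was described here through 9 listed mouse genes. They were the ligands Il1a, Il1b and Il18, the receptor antagonist Il1rn, the receptor chains Il1r1, Il1r2 and Il1rap, and the inflammasome genes Nlrp3 and Casp1. They were found by gene symbol in the annotation of the Affymetrix array, and 8 of the 9 had a named probe set, 1 each, among 19937 genes. No probe set was named for Il1r1, the signalling receptor, so it has no value here. The samples were 40 brain samples of postnatal day 9 C57/Bl6 mice, in 8 groups of 5 arrays.

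Vehicle mice and mice given the immunomodulatory peptide IDR-1018 (IDR) had their brains removed 10 h after dosing. The LPS group received lipopolysaccharide, a bacterial outer membrane component, with removal after 6 h. For LPS + IDR mice the peptide preceded LPS by 4 h, and the LPS interval was again 6 h. The 4 LPS/HI groups had either vehicle or peptide 4 h ahead of LPS, then hypoxia-ischaemia (HI) at 14 h after LPS and removal of tissue another 6 h later. Their left hemisphere is labelled injured and their right hemisphere uninjured, whereas the other 4 groups are labelled as uninjured brain. Both hemispheres of the LPS/HI groups had therefore been exposed to LPS, and no group with HI alone or with a sham operation was analysed here. For the LPS group the labels name no earlier vehicle dose. They give neither sex nor animal identity, and p-values measure the spread between arrays, which may be partly technical.

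Interleukin-1 alpha and interleukin-1 beta are ligands of the same receptor, which signals with the accessory chain encoded by Il1rap. Il1rn encodes a ligand that occupies this receptor without signalling, and Il1r2 encodes a decoy receptor that binds ligand without signalling. Interleukin-1 beta and interleukin-18 are made as precursors and are cut by caspase-1, which is activated in inflammasomes such as that built on the sensor NLRP3. In the brain, microglia and infiltrating myeloid cells are known sources of interleukin-1. The arrays measure RNA and carry no information on cleavage or release.

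The values are log2 RMA signals, and a difference of 1 is a 2-fold change. Array medians lay between 6.99 and 7.13. All 10 neuronal markers measured lay above the range of the olfactory receptor genes, which served as a gauge of unspecific signal (1027 genes, with a 95th percentile of 5.94 to 6.03 by group). By this gauge the group means of Il1rap and Il18 were above unspecific signal in all 8 groups, Il1rn, Il1r2 and Casp1 lay within its range in all 8, and Il1a, Il1b and Nlrp3 crossed its upper edge in some groups. On arrays, fold changes of genes at such low signal are compressed. In bulk tissue, fewer cells of a type and less RNA per cell cannot be told apart. Xist signal was above 8 on all 5 arrays of the LPS group, on 2 in Vehicle, 1 in the IDR group and 2 to 4 in each other group.

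A gene was called where limma's Benjamini-Hochberg adjusted p over all 19937 genes was under 0.05. After LPS, 1 of the 8 measured genes was called higher than in Vehicle, where 0.732% of all genes were. After LPS + IDR against IDR it was also 1 of 8, beside 1.16% of all genes. The injured hemisphere had 4 of 8 called higher than the uninjured hemisphere, beside 2.18% of all genes, and 2 of 8 with the peptide, beside 1.8%. The uninjured hemisphere had 1 of 8 called higher than Vehicle, beside 0.411%, and 1 of 8 with the peptide against IDR, beside 0.181%. The injured hemisphere had 4 of 8 called higher than Vehicle, beside 4.45%, and 4 of 8 with the peptide against IDR, beside 3.52%. None of the 8 was called lower in any of the 15 comparisons, where 0% to 3.89% of all genes were called lower, so few such calls were to be met among 8 genes. Median log2 fold changes of the 8 genes were 0.32 and 0.20 for injured against uninjured without and with the peptide, beside 0.013 and -0.00034 over all genes. For LPS against Vehicle the median was 0.057, beside -0.018 over all genes.

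The 4 genes called between the hemispheres were looked at in the 250 bases before their RefSeq start sites (build GRCm38.p6). The promoter sequences are shown because these genes shared that call without the peptide, although only Il1a among them was also called after LPS. Capitals mark the matches found among 7 motifs searched on both strands. The windows are chr2:129309973-129310222 for Il1a and chr2:129371140-129371389 for Il1b, both on the minus strand, and chr2:24336610-24336859 for the first of 3 listed Il1rn starts and chr1:40085843-40086092 for Il1r2, both on the plus strand. The Il1r2 window lies inside the full span listed for the gene, and the Il1a and Il1b windows overlap their listed spans in part. The sequences run 5′ to 3′ and end at the base before the start.
Il1a: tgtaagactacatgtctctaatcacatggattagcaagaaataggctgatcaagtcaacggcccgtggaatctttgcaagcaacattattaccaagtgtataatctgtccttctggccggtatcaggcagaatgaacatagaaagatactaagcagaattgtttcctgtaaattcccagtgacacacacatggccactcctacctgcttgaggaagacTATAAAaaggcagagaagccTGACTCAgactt
Il1b: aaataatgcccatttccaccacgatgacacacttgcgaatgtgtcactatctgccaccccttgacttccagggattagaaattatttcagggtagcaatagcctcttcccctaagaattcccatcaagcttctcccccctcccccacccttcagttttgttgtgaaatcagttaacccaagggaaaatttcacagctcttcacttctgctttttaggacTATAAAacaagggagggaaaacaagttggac
Il1rn: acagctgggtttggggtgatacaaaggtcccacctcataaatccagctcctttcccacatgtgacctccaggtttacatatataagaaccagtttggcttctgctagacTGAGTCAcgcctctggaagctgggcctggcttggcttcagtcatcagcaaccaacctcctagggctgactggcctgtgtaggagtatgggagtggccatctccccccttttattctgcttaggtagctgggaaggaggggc
Il1r2: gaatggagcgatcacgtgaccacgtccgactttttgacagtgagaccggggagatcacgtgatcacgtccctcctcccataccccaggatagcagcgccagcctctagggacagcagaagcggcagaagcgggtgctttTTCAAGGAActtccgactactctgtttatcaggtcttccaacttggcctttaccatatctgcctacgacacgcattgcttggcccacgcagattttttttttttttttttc

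Il1a held the TATA box letters TATAAA 32 to 27 bases before its start and the AP-1 letters TGANTCA 12 to 6 bases before it. Il1b held TATAAA 31 to 26 bases before its start. The first Il1rn promoter held an AP-1 match 141 to 135 bases before the start and the Il1r2 promoter a STAT match (TTCNNNGAA) 111 to 103 bases before it. Among 32817 promoters of the same length, 12.4% held TATAAA, 6.75% the AP-1 letters and 7.01% the STAT letters. The other motifs searched were the NF-kB consensus (7.25% of promoters), CRE (TGACGTCA, 1.55%), C/EBP (TTGCNNAA, 9.57%) and ISRE (2.97%). None of these 4 was in the windows printed. Of the promoters not printed, the first of 2 listed for Nlrp3 held an NF-kB consensus match 186 to 177 bases before its start and the second held none of the 7 motifs. For Il1r1 the second of 2 held an NF-kB consensus match 232 to 223 bases before its start and the first a C/EBP match 133 to 126 bases before it. Il18 held a TATA box match on the opposite strand, 175 to 170 bases before its start. The matches did not overlap each other. They describe letters in these windows, not bound sites.

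**Figure D1:**
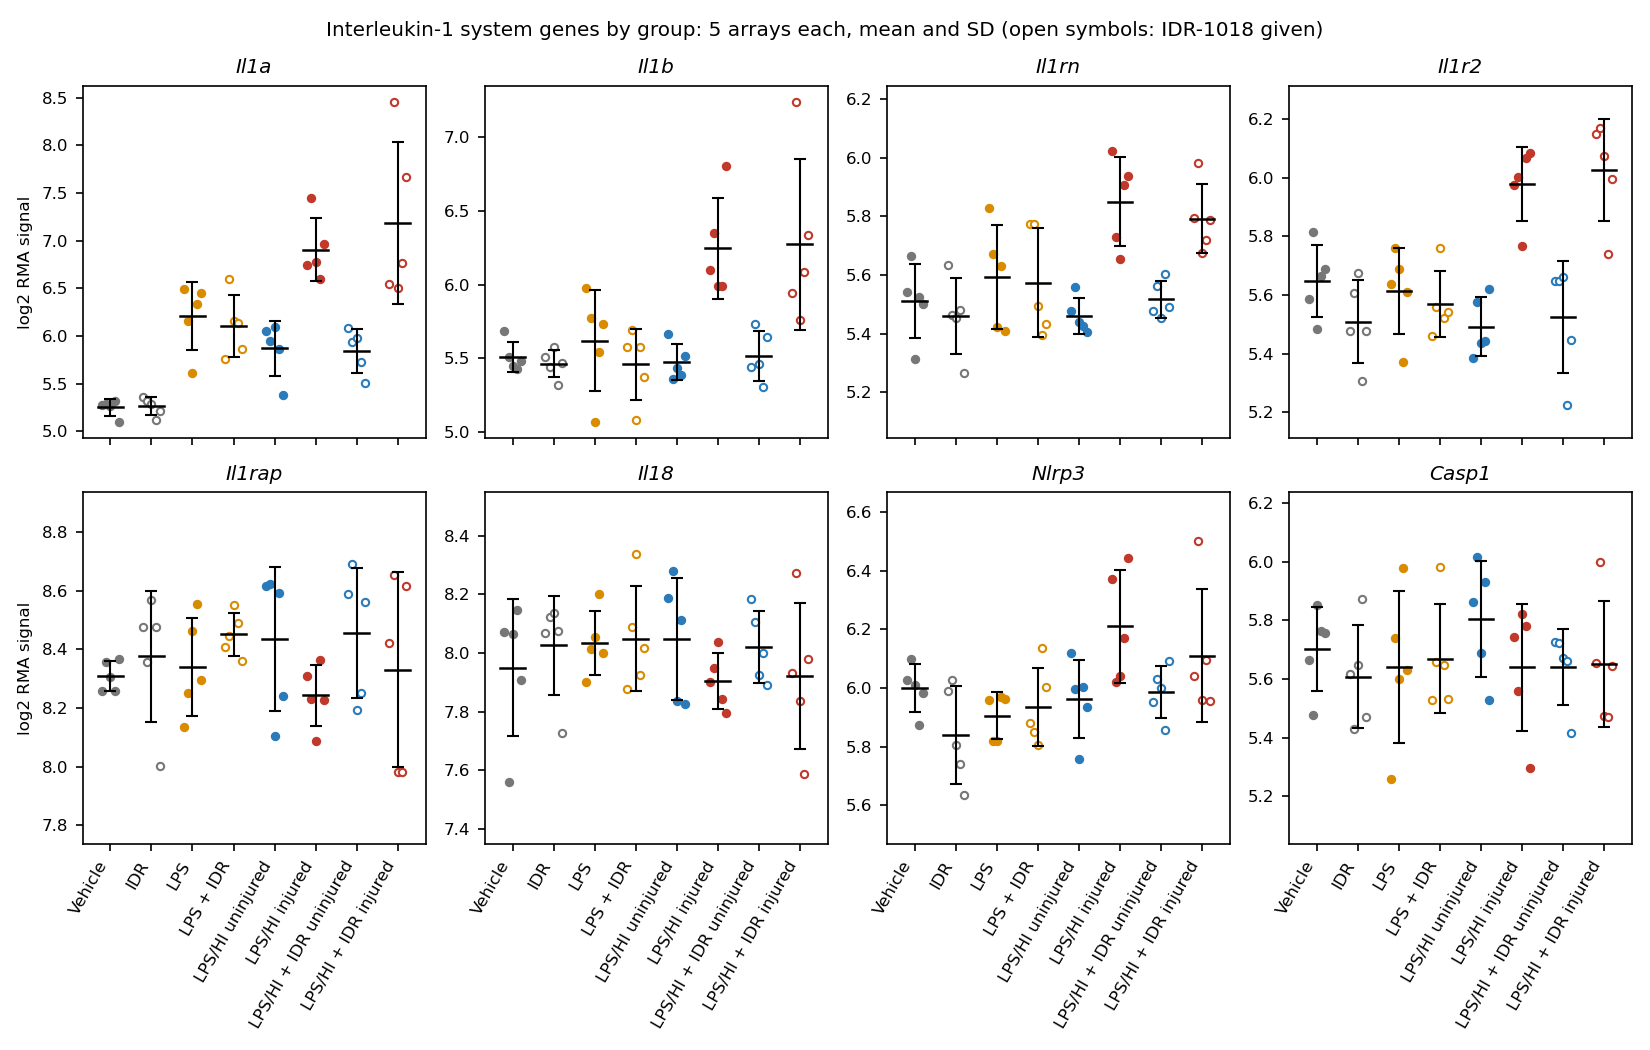
Log2 RMA signal (vertical axis) of the 8 measured genes in the 8 groups; each point is 1 array, bars are the mean and SD, and open symbols mark groups given IDR-1018. Il1a steps up from 5.25 in Vehicle to 6.91 and 7.19 in the injured hemispheres, Il1b, Il1rn and Il1r2 stand higher mainly in the injured hemispheres, and the group means of Il1rap, Il18 and Casp1 span 0.21, 0.14 and 0.20.

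Il1a was called higher than its control in every condition with LPS. Its Vehicle values on arrays 1 to 5 were 5.27, 5.29, 5.27, 5.32 and 5.10 (mean 5.25 ± 0.087, SD, n = 5), and its IDR values were 5.36, 5.32, 5.29, 5.12 and 5.22 (5.26 ± 0.095). Under LPS the values were 6.50, 6.15, 5.61, 6.33 and 6.46 (6.21 ± 0.36). Every LPS array was above every Vehicle array, as for 1.19% of all genes, although LPS array 3 was the lowest of its group. The difference was 0.96 ± 0.14 (log2 fold change ± SE), or 1.94-fold, with an adjusted p of 0.00218. With Xist as a covariate the difference was 0.93 and the adjusted p 0.0616, so the call was lost. Under LPS + IDR the values were 5.75, 6.60, 6.16, 6.14 and 5.87 (6.10 ± 0.33), 0.84 ± 0.13 above IDR (adjusted p = 0.00265).

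In the uninjured hemisphere Il1a read 6.06, 5.95, 6.10, 5.87 and 5.39 (5.87 ± 0.29), and with the peptide 6.09, 5.93, 5.98, 5.73 and 5.51 (5.85 ± 0.23). These values, at the upper edge of unspecific signal, did not overlap those of Vehicle and IDR respectively, as for 0.893% and 0.552% of all genes. The log2 fold changes were 0.62 ± 0.11 (adjusted p = 0.0247) and 0.58 ± 0.098 (adjusted p = 0.0227). Both calls were fragile. The first was lost without any single Vehicle array or any of uninjured arrays 1 to 4 (0.56 to 0.64, adjusted p = 0.0579 to 0.076), and the second without any single IDR array or any of uninjured arrays 1 to 3 (0.52 to 0.61, adjusted p = 0.0501 to 0.0816). Both were also lost in the all-group fit (adjusted p = 0.372 and 0.583) and with the Xist covariate (0.0976 and 0.129). Against LPS alone, the uninjured hemisphere differed by -0.34 ± 0.17 (95% interval -0.70 to 0.018, adjusted p = 1.00). There 0 of the 8 genes were called, beside 0.135% of all genes. At an unadjusted p under 0.05 it was also 0, beside 4.25% of all genes.

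The injured hemisphere held the highest Il1a signals of the study. Without the peptide its values were 6.74, 7.45, 6.78, 6.60 and 6.97 (6.91 ± 0.33), each above all 5 uninjured values. The difference from the uninjured hemisphere was 1.04 ± 0.16, or 2.05-fold (adjusted p = 0.00336), and that from Vehicle was 1.65 ± 0.13, or 3.15-fold (adjusted p = 2.08e-06). With the peptide the values were 6.55, 8.45, 6.50, 6.77 and 7.67 (7.19 ± 0.85). Arrays 2 and 5 stood well above the other 3 of this group, which spread over almost 2 log2 units and still did not overlap the uninjured hemisphere. There the difference was 1.34 ± 0.31, or 2.53-fold (adjusted p = 0.0376), and against IDR it was 1.92 ± 0.30 (adjusted p = 0.00255). The call between hemispheres with the peptide was lost without any single uninjured array or without injured array 5 (1.22 to 1.40, adjusted p = 0.062 to 0.0941) and with limma's trend and robust options (adjusted p = 0.063).

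Ordered by group mean, Il1a was highest in the LPS/HI + IDR injured hemisphere, then in the LPS/HI injured hemisphere, LPS, LPS + IDR, the uninjured hemispheres without and with the peptide, IDR and Vehicle. The step from the injured hemispheres down to LPS and the step from the uninjured hemispheres down to IDR exceeded the larger of the neighbouring SDs. The other 5 steps between neighbours did not.

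Il1b was higher in the injured hemisphere and was not called after LPS alone. Its Vehicle values were 5.69, 5.51, 5.45, 5.43 and 5.48 (5.51 ± 0.10) and its LPS values 5.98, 5.77, 5.07, 5.54 and 5.73 (5.62 ± 0.34). LPS array 3 lay below all Vehicle arrays and the others overlapped or exceeded them, so the LPS difference of 0.11 ± 0.13 (95% interval -0.18 to 0.39) did not pass the test (adjusted p = 0.949). IDR arrays read 5.51, 5.44, 5.57, 5.32 and 5.47 (5.46 ± 0.093), and LPS + IDR arrays 5.58, 5.69, 5.08, 5.58 and 5.38 (5.46 ± 0.24).

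Uninjured hemispheres read 5.66, 5.36, 5.43, 5.39 and 5.52 for Il1b (5.47 ± 0.12), and injured hemispheres 6.10, 6.35, 5.99, 5.99 and 6.80 (6.25 ± 0.34). All injured values were above all uninjured values, with array 5 the highest. The difference was 0.77 ± 0.13, or 1.71-fold (adjusted p = 0.007), and against Vehicle it was 0.74 ± 0.13 (adjusted p = 0.00306). With the peptide, the uninjured values were 5.44, 5.73, 5.46, 5.31 and 5.64 (5.52 ± 0.17) and the injured values 5.94, 7.24, 5.76, 6.08 and 6.34 (6.27 ± 0.58).

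The 2 sets with the peptide did not overlap either, but array 2 alone exceeded 7 and the spread in the injured group was wide. The difference of 0.76 ± 0.21 missed the threshold (adjusted p = 0.0869), and without injured array 2 it was 0.51 with an adjusted p of 0.0496. It also passed in the all-group fit (adjusted p = 0.00402) and with the Xist covariate (adjusted p = 0.0344), where the size of the difference was 0.76 and 0.75. Against IDR the difference was 0.81 ± 0.21 and was called (adjusted p = 0.0399). That call was lost without injured array 5 or any single IDR array (0.77 to 0.84, adjusted p = 0.0607 to 0.0947), after median centring, where the adjusted p was 0.0524, and with the Xist covariate, where the difference was 0.66 and the adjusted p 0.121. In the order of group means, the step from the injured hemispheres down to LPS was larger than the SDs, and neighbours among the other 6 groups did not differ beyond their spread.

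Il18 was not called in any comparison. Its group means ran from 7.91 ± 0.095 in the injured hemisphere to 8.05 ± 0.18 in LPS + IDR, with single arrays from 7.56 to 8.34, and no neighbouring groups differed by more than their spread. The injured hemisphere differed from the uninjured one by -0.14 ± 0.094 (95% interval -0.34 to 0.059, adjusted p = 0.547), a direction opposite to that of Il1a and Il1b but within the error of the test.

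The signal of both genes whose proteins restrain interleukin-1 was also higher in the injured hemisphere without the peptide. Their group means lay within the range of unspecific signal in all 8 groups. For Il1rn, the receptor antagonist, the uninjured values were 5.48, 5.56, 5.44, 5.43 and 5.40 (5.46 ± 0.061) and the injured values 6.02, 5.73, 5.66, 5.91 and 5.94 (5.85 ± 0.15). The groups did not overlap, and the difference was 0.39 ± 0.077, or 1.31-fold (adjusted p = 0.0155). With the peptide, uninjured arrays read 5.48, 5.56, 5.45, 5.60 and 5.49 (5.52 ± 0.063) and injured arrays 5.79, 5.98, 5.68, 5.72 and 5.79 (5.79 ± 0.12). These also did not overlap, and the difference of 0.28 ± 0.069 fell just outside the threshold (adjusted p = 0.0526). The same difference passed in the all-group fit (adjusted p = 0.0352), with the Xist covariate (0.0289) and without injured array 3 (0.0495).

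Vehicle arrays read 5.54, 5.67, 5.31, 5.53 and 5.50 for Il1rn (5.51 ± 0.13). The highest of them exceeded the lowest injured array, and the injured hemisphere was 0.34 ± 0.084 above Vehicle (adjusted p = 0.0223). With the peptide the injured hemisphere was 0.33 ± 0.078 above IDR (adjusted p = 0.0245). The call against Vehicle was lost without injured array 1, Vehicle array 3 or Vehicle array 4 (0.29 to 0.34, adjusted p = 0.0501 to 0.0596) and with the Xist covariate (0.31, adjusted p = 0.0823). That against IDR was lost without injured array 1, 2 or 5 or IDR array 2, 3 or 4 (0.28 to 0.34, adjusted p = 0.0521 to 0.0592). Median centring (adjusted p = 0.0589), the Xist covariate (0.29, adjusted p = 0.0772) and the replicate block (adjusted p = 0.0797) each also removed the call against IDR. LPS alone gave 0.082 ± 0.089 (adjusted p = 0.949).

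Il1r2, the decoy receptor, showed a like pattern. Its uninjured values were 5.39, 5.58, 5.44, 5.44 and 5.62 (5.49 ± 0.10) and its injured values 5.97, 6.00, 5.77, 6.07 and 6.08 (5.98 ± 0.13). With the peptide they were 5.65, 5.65, 5.66, 5.23 and 5.45 (5.53 ± 0.19) and 6.15, 6.17, 6.08, 5.74 and 6.00 (6.03 ± 0.17). In both arms every injured array was above every uninjured array. The differences were 0.49 ± 0.076 (adjusted p = 0.00372) and 0.50 ± 0.10 (adjusted p = 0.0227), or 1.4-fold and 1.41-fold. The call with the peptide was lost without injured array 1, 2 or 5 or uninjured array 5 (0.46 to 0.51, adjusted p = 0.0518 to 0.0604).

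Vehicle arrays read 5.59, 5.81, 5.48, 5.67 and 5.69 for Il1r2 (5.65 ± 0.12) and overlapped the injured range. The injured hemisphere was 0.33 ± 0.078 above Vehicle (adjusted p = 0.0179, 0.055 without Vehicle array 1 and 0.0588 with the Xist covariate) and, with the peptide, 0.52 ± 0.092 above IDR (adjusted p = 0.00558). The uninjured hemisphere was at -0.16 ± 0.074 relative to Vehicle (adjusted p = 0.772), so the gap between hemispheres was wider than the gap between injured tissue and Vehicle. For both Il1rn and Il1r2, the step from the injured hemispheres to the next group was the single step in the order of means that exceeded the SDs.

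**Figure D2:**
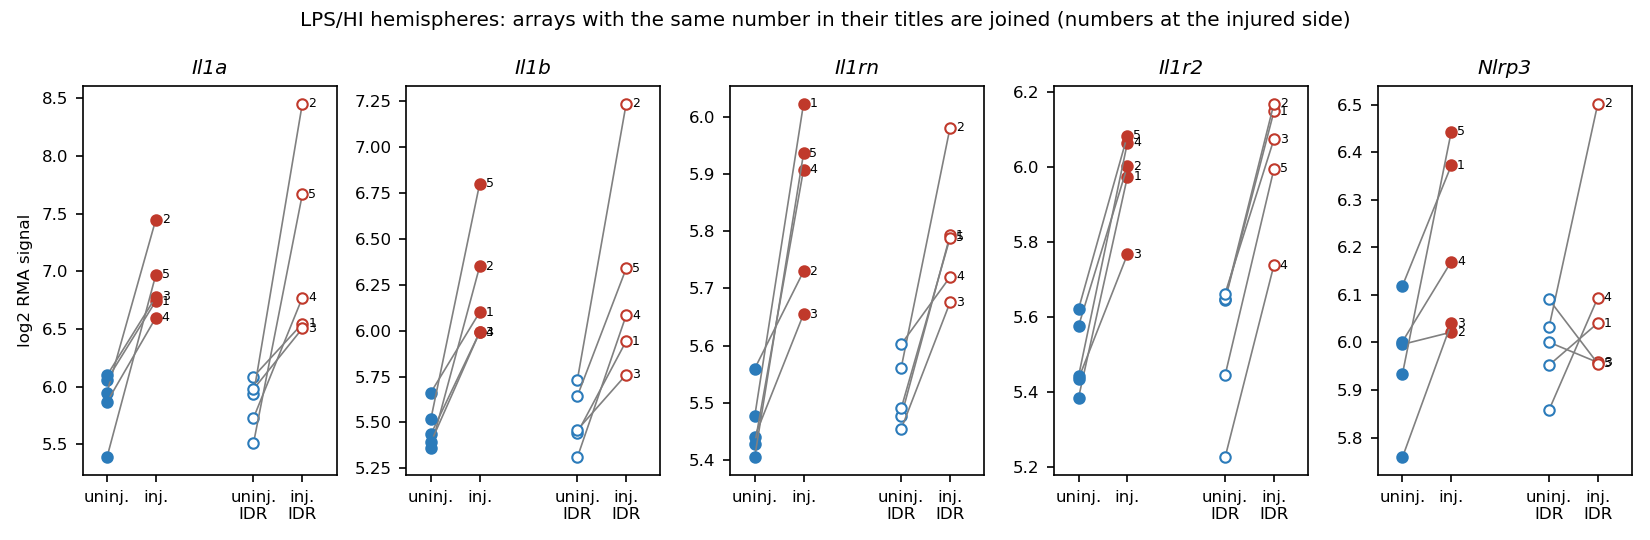
Log2 RMA signal of Il1a, Il1b, Il1rn, Il1r2 and Nlrp3 in the uninjured (blue) and injured (red) LPS/HI hemispheres, without (filled) and with IDR-1018 (open); lines join arrays that carry the same number in their titles. The first 4 genes are higher on the injured side for 5 of 5 numbers in both arms, which any joining would give because their groups do not overlap. Nlrp3, whose groups overlap, is higher for 5 of 5 without and 3 of 5 with the peptide. With the peptide the numbers were not taken as pairs.

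The hemisphere arrays share numbers in their titles, which paired them in the arm without the peptide by the correlation of their deviations. Joined by number, Il1a was higher on the injured side by 0.68 to 1.58 without and by 0.46 to 2.52 with the peptide. Il1b was higher by 0.44 to 1.28 and by 0.30 to 1.51, Il1rn by 0.17 to 0.55 and by 0.12 to 0.42, and Il1r2 by 0.33 to 0.62 and by 0.41 to 0.55. Groups that did not overlap were found for 4 of 8 genes in both arms, higher on the injured side, beside 3.42% and 3.18% of all genes. For these 4 genes any joining of the arrays puts the injured side higher, so the joined values give sizes and no further test.

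Il1rap, the accessory chain of the receptor, was not called in any comparison. Its group means lay between 8.24 ± 0.10 in the injured hemisphere and 8.46 ± 0.22 in the uninjured hemisphere with the peptide, and no neighbouring groups differed by more than their spread. The injured hemisphere was at -0.19 ± 0.10 relative to the uninjured one (95% interval -0.42 to 0.033, adjusted p = 0.434), with the injured array lower for 5 of 5 numbers without the peptide and for 4 of 5 with it.

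Nlrp3, the inflammasome sensor, read 6.12, 6.00, 5.76, 6.00 and 5.93 in the uninjured hemisphere (5.96 ± 0.13) and 6.37, 6.02, 6.04, 6.17 and 6.44 in the injured hemisphere (6.21 ± 0.19). The 2 groups overlapped, and the difference of 0.25 ± 0.095 was not called (adjusted p = 0.221). With the array number as a block in limma, the difference had an adjusted p of 0.0487, and 5 of 8 genes were called in place of 4. With the peptide the difference was 0.12 ± 0.098 (adjusted p = 0.66). Against Vehicle and IDR the injured hemispheres differed by 0.21 ± 0.087 (adjusted p = 0.167) and 0.27 ± 0.11 (adjusted p = 0.193). The other 6 groups had means between 5.84 and 6.00, and neighbours in the order of means did not differ beyond their spread.

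Casp1, the protease that processes interleukin-1 beta and interleukin-18, was not called in any comparison. Its group means ran from 5.61 ± 0.17 in IDR to 5.81 ± 0.20 in the uninjured hemisphere, within the range of unspecific signal, and single arrays from 5.26 to 6.02. The injured hemisphere was at -0.16 ± 0.11 relative to the uninjured one (95% interval -0.41 to 0.077, adjusted p = 0.57).

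**Figure D3:**
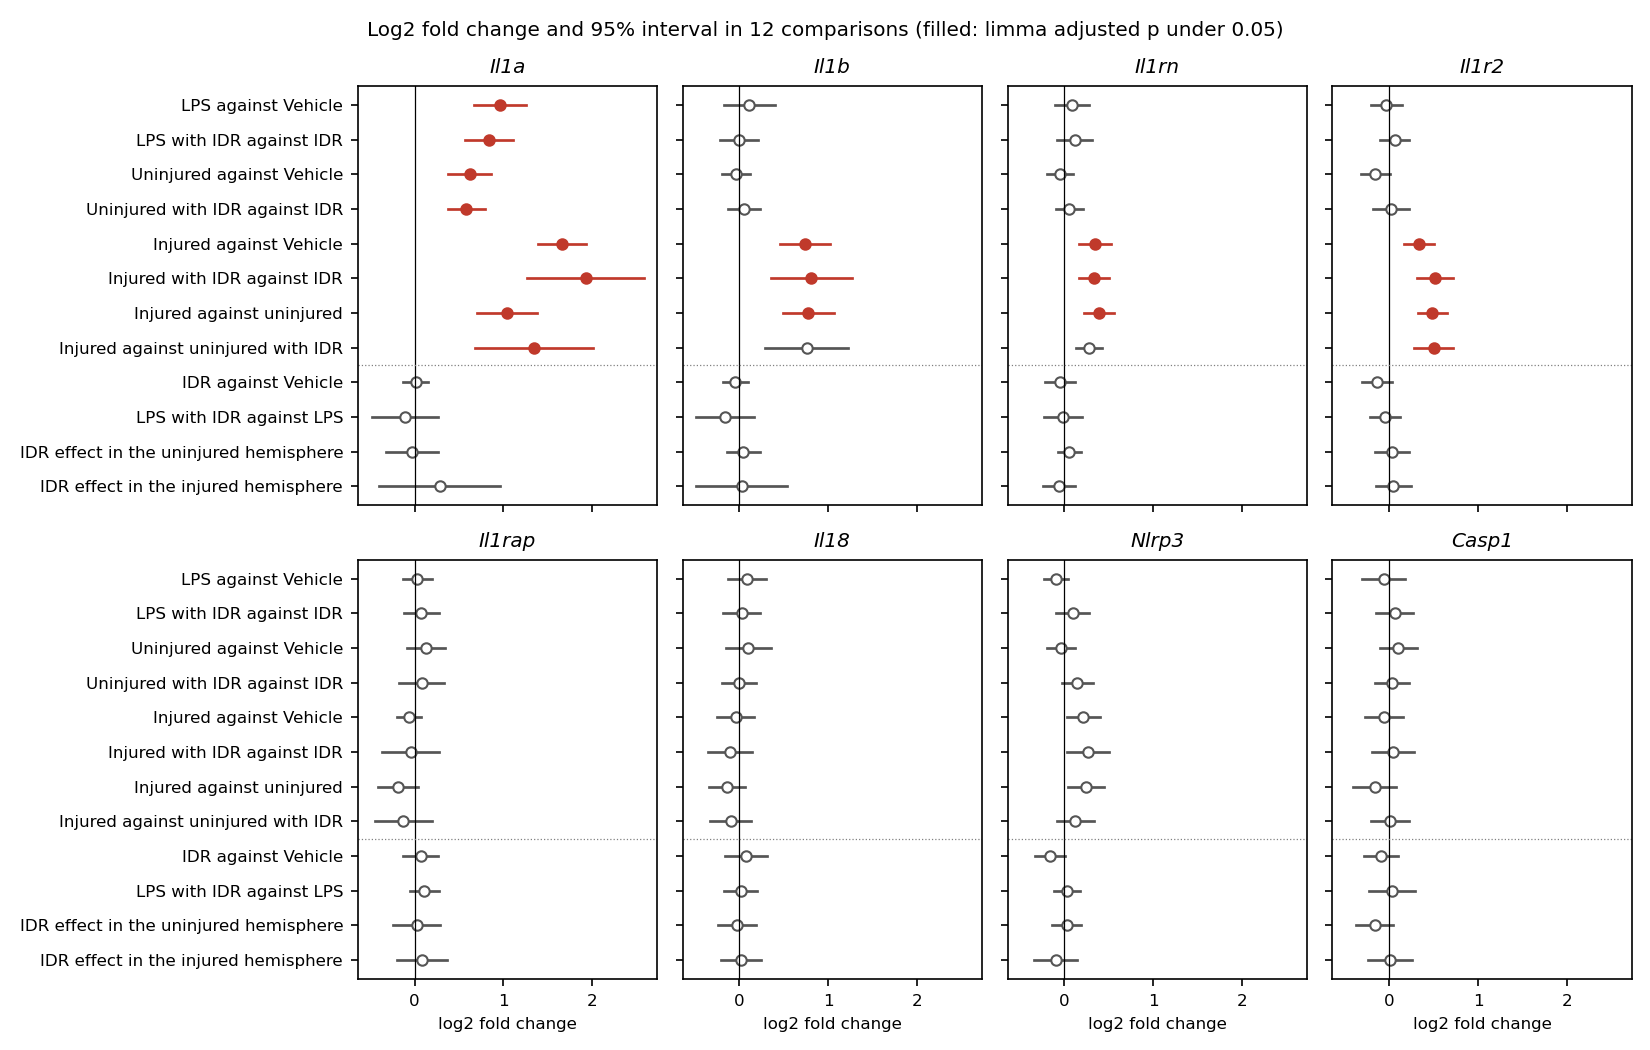
Log2 fold change (horizontal axis) with its 95% interval for the 8 measured genes in 12 comparisons; filled red points passed a limma adjusted p of 0.05, and the 4 comparisons below the dotted line are those of IDR-1018. Il1a has 8 filled points, from 0.58 to 1.92, Il1b, Il1rn and Il1r2 have theirs in the injured comparisons, and no point below the dotted line is filled.

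Other genes of the pathway were followed through 46 listed symbols, 39 of them measured. After LPS, 1 of the 39 was called, higher, where 0.732% of all genes were called higher and 0.1% lower. This was Casp4, the caspase that senses cytosolic LPS and acts beside caspase-1. It rose from 5.15 ± 0.16 in Vehicle to 5.88 ± 0.17 under LPS, by 0.72 ± 0.092 (adjusted p = 0.000769). All 8 group means of Casp4, 5.02 to 5.89, lay within the range of unspecific signal. After LPS + IDR against IDR, 2 of 39 were called higher, beside 1.16% of all genes. They were Casp4, by 0.87 ± 0.11 (adjusted p = 0.000885), and Txnip, a thioredoxin-binding protein linked to NLRP3 activation, by 0.62 ± 0.13 (adjusted p = 0.0274). For LPS alone Txnip was at 0.44 ± 0.13 (adjusted p = 0.275). Casp4 kept its call in both comparisons under all 16 alternatives run. The Txnip call was lost without IDR array 1, 3 or 5 or LPS + IDR array 1, 4 or 5, with an adjusted p of up to 0.0878.

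Between the hemispheres, 0 of 39 were called lower on the injured side, beside 0.813% and 0.702% of all genes without and with the peptide. Called higher there were 3 of 39 without the peptide and 5 of 39 with it, beside 2.18% and 1.8% of all genes. Without the peptide these were Myd88, the adaptor of the interleukin-1 receptor (0.34 ± 0.082, adjusted p = 0.0387), P2rx7, the ATP-gated channel upstream of NLRP3 (0.32 ± 0.072, adjusted p = 0.0286), and Txnip (0.51 ± 0.13, adjusted p = 0.0485). With the peptide the 4 with the highest fold change were Nfkbiz, an inducible nuclear regulator of NF-kB (0.55 ± 0.12, adjusted p = 0.0329), Txnip (0.49 ± 0.088, adjusted p = 0.0109), Casp4 (0.37 ± 0.078, adjusted p = 0.0255) and Irak3, a negative regulator of receptor signalling (0.30 ± 0.066, adjusted p = 0.0283). Of these 8 calls, P2rx7 with the peptide included (0.26 ± 0.063, adjusted p = 0.0485), that of Txnip with the peptide was kept under all 17 alternatives run. The other 7 were each lost without 5 or more of the 10 single arrays, with a highest adjusted p of 0.0731 (Casp4) to 0.12 (Txnip), and 6 of them, all but P2rx7 without the peptide, also after median centring.

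Against Vehicle, the injured hemisphere had 10 of 39 pathway genes called higher and 2 lower, beside 4.45% and 3.89% of all genes. The 4 with the largest change were Txnip (0.60 ± 0.14, adjusted p = 0.0157), Casp4 (0.54 ± 0.10, adjusted p = 0.00445), P2rx7 (0.49 ± 0.064, adjusted p = 0.000326) and Pycard, the inflammasome adaptor (0.41 ± 0.074, adjusted p = 0.00354), and these 4 were called under all alternatives run. The 2 lower genes, named after their values were seen, were the neuronal receptor-like genes Il1rapl1 (-0.30 ± 0.081, adjusted p = 0.0383) and Il1rapl2 (-0.40 ± 0.083, adjusted p = 0.00756). The Il1rapl1 call did not survive the all-group fit, the Xist covariate or the omission of several single arrays (adjusted p up to 0.128), while that of Il1rapl2 was kept. With the peptide against IDR, 8 of 39 were called higher and 0 lower, beside 3.52% and 2.35% of all genes. The 8 were led by Nfkbiz (0.56 ± 0.12), Casp4 (0.55 ± 0.10), Txnip (0.54 ± 0.10) and Myd88 (0.40 ± 0.081), with adjusted p of 0.0122, 0.00696, 0.00929 and 0.0105. These comparisons share their Vehicle or IDR arrays with those of the uninjured hemisphere.

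In the uninjured hemisphere, 0 of 39 pathway genes were called against Vehicle by limma, beside 0.436% of all genes called. At an unadjusted p under 0.05 there were 8 of 39, beside 6.58% of all genes. With the peptide against IDR, where 0.201% of all genes were called, 1 of 39 was, Naip5 (0.33 ± 0.053, adjusted p = 0.0206). Its means there, 5.07 and 4.74, lie within the range of unspecific signal, and the call was kept in 6 of 16 alternatives, lost in the all-group fit, with the Xist covariate and without any of several single arrays (adjusted p up to 0.332). Naip5 also belongs to a family of near-identical copies. Naip5 was at 0.63 ± 0.13 in the uninjured hemisphere against Vehicle (adjusted p = 0.0554). Casp4, higher after LPS alone, was at 0.22 ± 0.093 there (adjusted p = 0.686).

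**Figure D4:**
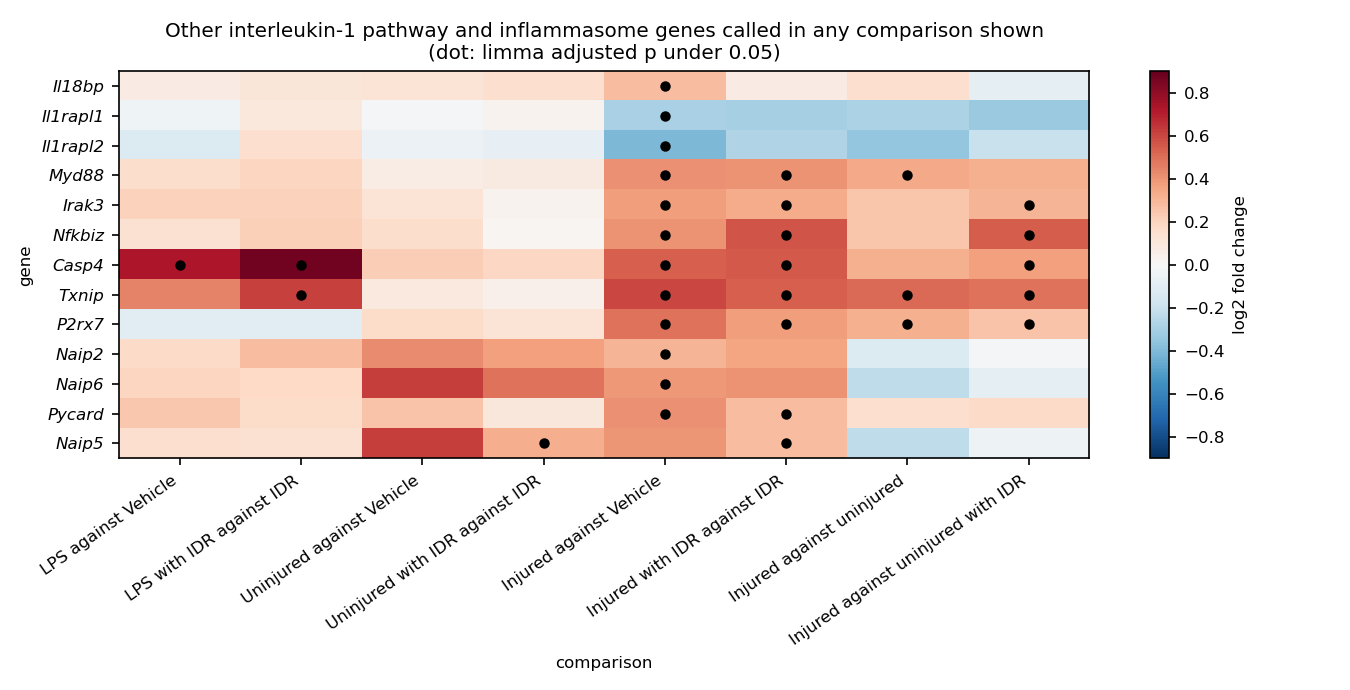
Log2 fold change (colour) of the 13 pathway genes called in any of the 8 comparisons on the horizontal axis; dots mark a limma adjusted p under 0.05. Casp4 has its deepest colour after LPS (0.72 and 0.87), while Myd88, Irak3, Nfkbiz and P2rx7 carry dots in the injured comparisons and none after LPS alone.

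Cell markers were read beside these results, and their part in them was not tested. The shares of all genes called in these comparisons are those given above. At an unadjusted limma p under 0.05 the share of all genes between the hemispheres was 15% without and 14.4% with the peptide. The mean log2 signal of the 14 microglial markers measured was 8.03 in Vehicle (arrays 7.90 to 8.15), 8.10 under LPS (7.97 to 8.22), 8.31 in the uninjured hemisphere (8.16 to 8.44) and 8.30 in the injured hemisphere (8.18 to 8.45). Between the hemispheres, where 4 of the interleukin-1 genes differed, 0 microglial markers were called higher by limma and 1 was called lower (6 of 14 at an unadjusted p under 0.05), which was the homeostatic receptor P2ry12 (-0.45 ± 0.11, adjusted p = 0.0471). That call was kept in 9 of 17 alternatives and lost with the Xist covariate and without any of 7 single arrays (adjusted p up to 0.131). With the peptide, 0 of 14 microglial markers were called between the hemispheres (3 at an unadjusted p under 0.05). Against Vehicle, 5 of 14 were called higher and 0 lower in the uninjured hemisphere, and 7 higher and 1 lower in the injured hemisphere. Some of these calls were fragile, kept in as few as 8 of 17 alternatives for the uninjured and 7 of 17 for the injured hemisphere. The complement gene C1qb was higher in both (0.88 ± 0.11 and 0.96 ± 0.090), and the lower one was again P2ry12 (-0.61 ± 0.090, adjusted p = 0.000776, called in 17 of 17 alternatives). After LPS, 2 were called higher, C1qb among them, and 1 lower. After LPS + IDR against IDR, 1 was called higher, again C1qb, and 3 lower.

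Of 12 neutrophil markers, 7 to 9 by group lay within the range of unspecific signal, including Ly6g, Mmp8 and Cxcr2 in all 8 groups. Their mean signal ran from 5.33 to 5.44 on uninjured and from 5.40 to 5.53 on injured arrays without the peptide, and limma called 0 of 12 between the hemispheres in either arm (1 and 3 at an unadjusted p under 0.05). S100a8 (0.29 ± 0.059) and Csf3r (0.25 ± 0.062) were called in the injured hemisphere with the peptide against IDR. S100a8 lay within unspecific signal in all 8 groups, and its call was kept in 14 of 16 alternatives, lost in the all-group fit among others (adjusted p up to 0.0814). That of Csf3r was kept in 6 of 17 (adjusted p up to 0.0963). Of 10 monocyte and macrophage markers, limma called 0 between the hemispheres in either arm (2 and 3 at an unadjusted p under 0.05). After LPS and in the uninjured hemisphere against Vehicle 1 of the 10 was called, higher, which was Ms4a6c (0.98 ± 0.063 and 1.15 ± 0.18). In the injured hemisphere 5 of 10 were called higher against Vehicle, among them Ms4a6c (1.19 ± 0.11) and the lysozyme gene Lyz2 (0.79 ± 0.097), both called in 17 of 17 alternatives. The remaining calls against Vehicle were kept in 7 of 17, 11 of 16 and 11 of 16 alternatives (adjusted p up to 0.114). With the peptide against IDR, 3 were called higher and 1 lower. The monocyte receptor Ccr2 stayed within unspecific signal in all 8 groups. The mean signal of the 10 monocyte and macrophage markers was 6.68 in Vehicle (arrays 6.60 to 6.72), 6.93 in the uninjured hemisphere (6.81 to 7.13) and 6.97 in the injured hemisphere (6.84 to 7.06). The mean of the 10 neuronal markers was 11.86 to 11.94 on uninjured and 11.73 to 11.79 on injured arrays without the peptide. With the peptide it was 11.84 to 11.90 and 11.73 to 11.83. Limma called 0 of 10 neuronal markers between the hemispheres in either arm (1 and 1 at an unadjusted p under 0.05). All marker and pathway counts come from fits without the array number as a block. Without the peptide that block moved the count over all genes between the hemispheres from 596 to 2032. Marker and pathway genes not called were not refitted with it, so a count of 0 there does not show that no marker changed.

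Markers of other brain cells also differed in these comparisons. Of 10 endothelial markers, 1 was called higher in the injured than in the uninjured hemisphere and 2 with the peptide, in both arms the adhesion molecule Pecam1 (0.39 ± 0.080, adjusted p = 0.0176, and 0.46 ± 0.11, adjusted p = 0.0395). Its call was kept in 16 of 17 alternatives without the peptide and in 9 of 17 with it. The mean endothelial signal was 8.39 to 8.69 on uninjured and 8.46 to 8.69 on injured arrays without the peptide. After LPS, 1 of 10 was called, lower, the angiopoietin receptor gene Tek (-0.85 ± 0.14, adjusted p = 0.00783), a call lost with the Xist covariate. The mean endothelial signal was 8.01 to 8.50 under LPS beside 8.50 to 8.63 in Vehicle. After LPS + IDR against IDR, 3 of 10 were called lower, beside 0.311% of all genes. Tek was among them (-0.80 ± 0.13, adjusted p = 0.00531, called in 17 of 17 alternatives). Of 10 astrocyte markers, 1 was called lower in the injured than in the uninjured hemisphere, Fgfr3 (-0.44 ± 0.082, adjusted p = 0.0111, called in 17 of 17 alternatives). With the peptide 0 of 10 were called there (4 at an unadjusted p under 0.05). Fgfr3 was also the 1 called higher after LPS (0.51 ± 0.086, adjusted p = 0.00774, lost with the Xist covariate). The same held after LPS + IDR against IDR (0.39 ± 0.066, adjusted p = 0.00749, called in 17 of 17 alternatives). Against Vehicle, 1 of 10 astrocyte markers was called higher in the uninjured and 2 in the injured hemisphere, Gfap among the latter (0.63 ± 0.10). Of 9 oligodendrocyte lineage markers, 1 was called lower in the injured than in the uninjured hemisphere, the progenitor receptor Pdgfra (-0.35 ± 0.086, adjusted p = 0.0453), kept in 8 of 17 alternatives (adjusted p up to 0.12). With the peptide 0 of these 9 were called between the hemispheres (2 at an unadjusted p under 0.05). Of 11 lymphocyte markers, 7 lay within unspecific signal in all 8 groups, and limma called 0 between the hemispheres in either arm (1 and 1 at an unadjusted p under 0.05).

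The peptide comparisons called 0 of 8 interleukin-1 genes. Limma called 0 of 8 for IDR against Vehicle, for LPS + IDR against LPS, and for the peptide in the injured and in the uninjured hemisphere, and at an unadjusted p under 0.05 it was also 0 of 8 in each. Over all genes these comparisons called 0%, 0%, 0% and 0%, with 321, 2674, 277 and 376 genes at an unadjusted p under 0.05. The interaction of LPS and peptide also had 0 of 8 (unadjusted 0, beside 0.00502% of all genes called and 873 genes at an unadjusted p under 0.05), as did that of injury and peptide (unadjusted 0, beside 0% and 361 genes).

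The intervals bound these differences unevenly. In the injured hemisphere the peptide difference of Il1a was 0.28 ± 0.32 (95% interval -0.40 to 0.97) and that of Il1b 0.026 ± 0.24 (-0.49 to 0.54). Without injured array 2 of the peptide group these became -0.035 and -0.22. For Il1rn the difference was -0.059 ± 0.084 (-0.24 to 0.12) and for Il1r2 0.047 ± 0.091 (-0.15 to 0.24). Under LPS the peptide difference was -0.11 ± 0.17 for Il1a (-0.48 to 0.27) and -0.16 ± 0.15 for Il1b (-0.49 to 0.17). Without LPS, Il1a differed by 0.011 ± 0.065 (-0.13 to 0.15) and Il1b by -0.046 ± 0.067 (-0.19 to 0.098). The interval of the injured peptide group therefore allows an Il1a difference of nearly a log2 unit. Without LPS, Il1a and Il1b lay within unspecific signal in both groups, so the narrow intervals there describe the probe signal and set no bound on a difference in RNA. The means of Il1rn and Il1r2 in the injured hemisphere and of Il1b under LPS, without and with the peptide, also lay within that range. Their intervals likewise describe the probe signal, where fold changes are compressed.

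Injured array 2 of the peptide group was the highest array of its group for all 8 measured genes. It read 8.45 for Il1a, 7.24 for Il1b, 5.98 for Il1rn, 6.17 for Il1r2 and 6.50 for Nlrp3. For the genes not called in any comparison it read 8.65 for Il1rap, 8.27 for Il18 and 6.00 for Casp1. The uninjured array with the same number was the highest of its group for Il1b and not for Il1a.

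The genes whose levels followed Il1a most closely over the 40 arrays were Gpr84, a receptor of activated microglia (Pearson r = 0.911), Csf1, the growth factor of microglia (0.910), and Igfbp3, a binding protein of insulin-like growth factors (0.881). The arrays share their groups, and the correlations within groups were 0.659, 0.667 and 0.599. Without the 2 arrays farthest from the median of Il1a they were 0.916, 0.856 and 0.847 over the rest. Gpr84 ran from 6.69 in Vehicle through 7.36 under LPS to 8.33 in the injured hemisphere, and Csf1 from 7.72 through 7.93 to 8.40.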

How the data were processed

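RNA from 40 samples had been hybridised to Affymetrix arrays, and the authors deposited log2 values made with RMA from the affy package, per the submitters' processing notes (versions not given in the sources used here). Quantile normalisation within RMA hides any change common to all genes. Of 34760 probe sets, 21640 carried 1 symbol in the platform annotation, 1321 several and 11799 none. Probe sets with 1 symbol were kept, with the highest mean per gene, which left 19937 genes and no filter on signal. Pairs of groups were compared with limma 3.58.1 (lmFit and eBayes, R 4.3.3) on the arrays of those groups, and interactions on 20 arrays. Errors are SDs of means and SEs of log2 fold changes, and the number of arrays limits the precision (median 95% half-width 0.15 to 0.25). The procedure was tested on simulated data.

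All listed genes were named, and of the pathway lists all called genes or the 4 with the largest change. At most 2 called genes per marker list were named, and the 3 genes most correlated with a listed gene whose group means span over 1. The listed genes, lists and rules were chosen with earlier results of these data known. Same-numbered arrays were checked for pairing by the correlation of their deviations from the group means. It was 0.392 to 0.646 between the hemispheres without the peptide, over 0.1 for all 5 numbers, so those numbers were taken as pairs. Between the injured hemisphere and Vehicle it was 0.116 to 0.443, also over 0.1 for all 5. Those arrays come from different mice, so their numbers served as a block and do not pair animals. Alternatives were median centring, a filter on low signal (mean of 6 or more), the mean of probe sets, a fit to all 8 groups, limma's trend and robust options, Xist as a covariate, the replicate block and leaving out each array. Promoter sequences came from RefSeq (GRCm38.p6), where 9 of 9 genes matched.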

Additional observations from a re-analysis of the deposited data

Results flagged for a closer look

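In 5 of 64 sets of 5 arrays (8 genes in 8 groups), 1 array stood apart from the other 4 by Dixon's criterion (gap over range above 0.71). Chance flags about 1 in 20 such sets.

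Il1a was lowest on Vehicle array 5, at 5.10, where the next array read 5.27. Il18 was lowest on IDR array 5, at 7.73, where the next read 8.07. Nlrp3 was highest on array 2 of the injured hemisphere with the peptide, at 6.50 beside 6.09. Casp1 was highest on LPS + IDR array 3, at 5.98 beside 5.66, and lowest on array 5 of the uninjured hemisphere with the peptide, at 5.42 beside 5.66.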

How the results depend on the processing

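Of 18 called values of the interleukin-1 genes, 296 alternatives were computed, of which 239 kept the call and 0 turned the direction. Of 102 values not called, 1829 alternatives gave 9 calls. Il1a, Il1b, Il1rn and Il1r2 kept their calls between the hemispheres without the peptide under all alternatives that tested them, with 4 of 8 called whichever array was left out. The filter on low signal kept Il1a, Il1rap and Il18 and so left 1 call in each of the 4 injured comparisons (from 4, 2, 4 and 4). With Xist as a covariate the calls went from 1 to 0 for LPS against Vehicle and for both uninjured comparisons, from 4 to 2 for both injured comparisons with Vehicle or IDR, and from 2 to 4 between the hemispheres with the peptide. The fit to all 8 groups gave 0 in both uninjured comparisons (Il1a adjusted p = 0.372 and 0.583) and 4 between the hemispheres with the peptide, where the trend and robust options gave 1. Median centring gave 2 for the injured hemisphere with the peptide against IDR. Leaving out single arrays gave 0 to 3 between the hemispheres with the peptide, 0 to 1 in both uninjured comparisons and 2 to 4 for the injured hemisphere with the peptide against IDR. The cause of these changes was not tested, beyond the fewer genes and arrays by construction.

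Between the hemispheres without the peptide, where the numbers were taken as pairs, the replicate block moved the count over all genes from 596 to 2032. It gave 5 in place of 4 interleukin-1 genes there. For the injured hemisphere against Vehicle, whose arrays come from different mice, the block changed no interleukin-1 call. Elsewhere too the arrays were taken to share only a number. There the block gave 4 in place of 2 between the hemispheres with the peptide (Il1b and Il1rn added, adjusted p = 0.0133 and 0.0407, correlations 0.0884 to 0.589, all genes 498 to 894) and 2 in place of 4 for the injured hemisphere with the peptide against IDR (Il1b and Il1rn lost, 0.0815 and 0.0797, all genes 1171 to 498).

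Counts over all genes moved by over 1.5 times in other settings too. The fit to all 8 groups gave 1431 (from 596) and 1432 (from 498) between the hemispheres without and with the peptide, 67 (from 40) for the uninjured and 1909 (from 1171) for the injured hemisphere with the peptide against IDR, and 69 (from 27) for uninjured against LPS. The Xist covariate gave 86 (from 166) for LPS, 1083 (from 498) between the hemispheres with the peptide, 52 (from 87) and 917 (from 1663) for the uninjured and injured hemispheres against Vehicle, 21 (from 40) for the uninjured hemisphere with the peptide and 13 (from 27) for uninjured against LPS. Leaving out single arrays gave as few as 285, 230, 51, 964, 21, 705 and 15 for the comparisons with 596, 498, 87, 1663, 40, 1171 and 27, and up to 66 for that with 40.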

Other observations

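The genes most correlated with the other interleukin-1 genes over the 40 arrays were also read, although their group means span less than 1 and they fall outside the naming rule. They are given as a description. Il1b ran closest to Plaur, the urokinase receptor (Pearson r = 0.895), Ccn1, a matricellular protein (0.892), and Cd14, the LPS co-receptor (0.883), whose group means rose from 6.22 in Vehicle to 7.62 and 7.89 in the injured hemispheres and stood at 6.21 under LPS. Il1rn ran closest to Mmp12 (0.839) and the chemokine Ccl7 (0.829), and Il1r2 to Rgs16 (0.843) and Lgals3 (0.835).

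Il1rap, which was not called anywhere, varied with Vps13c (0.918), Sv2b, a synaptic vesicle protein (0.917), and Slc4a10, a bicarbonate transporter (0.912). Within groups these correlations were 0.941, 0.918 and 0.907. The arrays share normalisation and tissue, and no test was made.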
